A study of Gallus gallus with 6 samples.

Results

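The nuclear genes for the subunits of the 5 oxidative phosphorylation complexes were examined in the chicken feather follicle. Of 10964 transcript records listed in any library, 43 carried a description naming NADH dehydrogenase (ubiquinone), succinate dehydrogenase, ubiquinol-cytochrome c reductase, cytochrome c oxidase or ATP synthase. Assembly factors and vacuolar or lysosomal ATPases were set aside, which removed COX10, COX11, NDUFAF1, ATPAF1, ATPAF2 and ATP6AP1L and left 37 members. These comprised 17 records of complex I, 2 of complex II, 3 of complex III, 8 of complex IV and 7 of complex V. No measured value entered the choice.

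Total RNA of Gallus gallus was sequenced as 6 libraries, 1 per group. In the growth phase the feather follicle was represented by the dermal papilla, the feather epithelium and the mesenchymal pulp. The resting phase was represented by the dermal papilla alone, and regeneration by the feather follicle 2 and 4 days after a wound. The labels gave no breed, age or number of birds, and with 1 library per group no spread between birds could be estimated and no significance test was possible. All intervals below are 95% intervals for counting error only.

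Oxidative phosphorylation passes electrons from NADH and succinate along the inner mitochondrial membrane to oxygen and uses the proton gradient so formed to make ATP. Complex I takes electrons from NADH and complex II takes them from succinate, the latter as an enzyme of the tricarboxylic acid cycle. Complex III passes them from ubiquinol to cytochrome c, complex IV passes them to oxygen, and complex V is the ATP synthase. Of these only complex II carries no subunit made from mitochondrial DNA, and unlike complexes I, III and IV it pumps no protons. The dermal papilla is the mesenchymal condensation that instructs the feather epithelium, the pulp is the vascular mesenchyme inside the growing feather, and the epithelium divides and keratinises to form it. Subunit roles below are those known from the mammalian enzymes, and the subunits made from mitochondrial DNA were not analysed here.

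Library totals ranged from 3269376 to 6064791 reads, of which 40 to 44.5% fell on listed records. Levels are given in RPM (reads relative to the library total) after TMM scaling, in which a trimmed mean of log ratios centres each library on the others. They are not divided by transcript length, so levels of different genes were not compared. The epithelium library stood apart: its scaling factor was 0.688 against 0.997 to 1.17 elsewhere, and 10 records took 28.6% of its listed reads against 9.56 to 16.1% elsewhere. Without scaling the median log2 ratio of all tested records moved from -0.05 to 0.45 for growth papilla against epithelium, from 0.08 to 0.61 for pulp against epithelium, from -0.02 to -0.13 for growth against resting papilla and from -0.03 to 0.07 for day 4 against resting papilla. Ratios of the members are therefore read against the median of all tested records. The epithelium and pulp tables were also the deepest and were laid out differently from the rest, so a ratio across them also compares 2 sets of tables. Marker genes set the epithelium library apart from the others. In it 17 epithelial genes (CDH1, EPCAM, KRT14 and others) summed to 13885, against 130 to 2802 elsewhere. There 17 fibroblast genes summed to 170, against 5728 to 9898 elsewhere. These 2 lists did not clearly separate the resting papilla from the day 2 follicle. Their epithelial sums were 1651 and 2144 and their fibroblast sums 5728 and 7615.

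The members were detected throughout the follicle. Between 35 and 37 of them were listed in each library, 35 in all 6 libraries, and their reads summed to between 14806 and 30834 per library. At least 20 reads in 1 library were reached by 32 members, and at least 200 reads by 27. The other 5 were near the detection limit everywhere. NDUFA12 had 5 reads in the resting papilla and was unlisted in the remaining libraries, and LOC769346, a partial record for the beta subunit of the ATP synthase, was unlisted in the growth papilla and had 2 to 12 reads elsewhere. UQCRQ had 2 to 7 reads, COX7A2L 4 to 10 and COX7C 3 to 11. An unlisted record had at most 1 read, since no library listed a record with fewer than 2.

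The summed level of the 37 members was 4949.6 in the growth papilla (4875 to 5025), 7369 in the growth epithelium (7286 to 7451), 5303 in the pulp (5244 to 5363), 4139 in the papilla at rest (4073 to 4205), 4029.8 at day 2 (3965 to 4095) and 4641 at day 4 (4574 to 4709). The epithelium was thus highest, the resting papilla and day 2 follicle were lowest, and their intervals overlapped. Without scaling the epithelium's sum was 5068 and lay below the pulp's 5425 and the day 4 follicle's 5423, so its first place rested on the scaling. In a bulk library a lower sum from fewer cells of a type cannot be told apart from less RNA per cell.

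Among the 32 members with at least 20 reads, 25 had their highest level in the epithelium, against 28.4% of the 7205 records with that many reads. Without scaling the count was 9 members, against 12.9% of records. The remaining 7 members peaked elsewhere: NDUFB5, SDHA and COX5A in the growth papilla, and NDUFB2, NDUFC2, SDHD and COX4I1 in the pulp. With scaling none peaked in the resting papilla or in the regenerating follicle. Without scaling these 7 kept their library, and the 9 still highest in the epithelium were NDUFS8, NDUFA5, NDUFB8, UQCRHL, COX7B, COX8A, ATP5B, ATP5G3 and ATP5S. The remaining 16 then peaked outside the epithelium, so that 5 members were highest in the resting papilla, 1 at day 2 and 5 at day 4. With scaling the lowest level was found at day 2 for 12 members, in the pulp for 8 and in the resting papilla for 8. Of the 7205 records, 12%, 20.2% and 11% were lowest in those libraries. From its lowest to its highest library a member spanned 2.57-fold in the median, against 3.08-fold for all records with at least 20 reads. Less than 2-fold was spanned by 7 members (21.9%), close to the 19.5% of all those records.

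**Figure D1:**
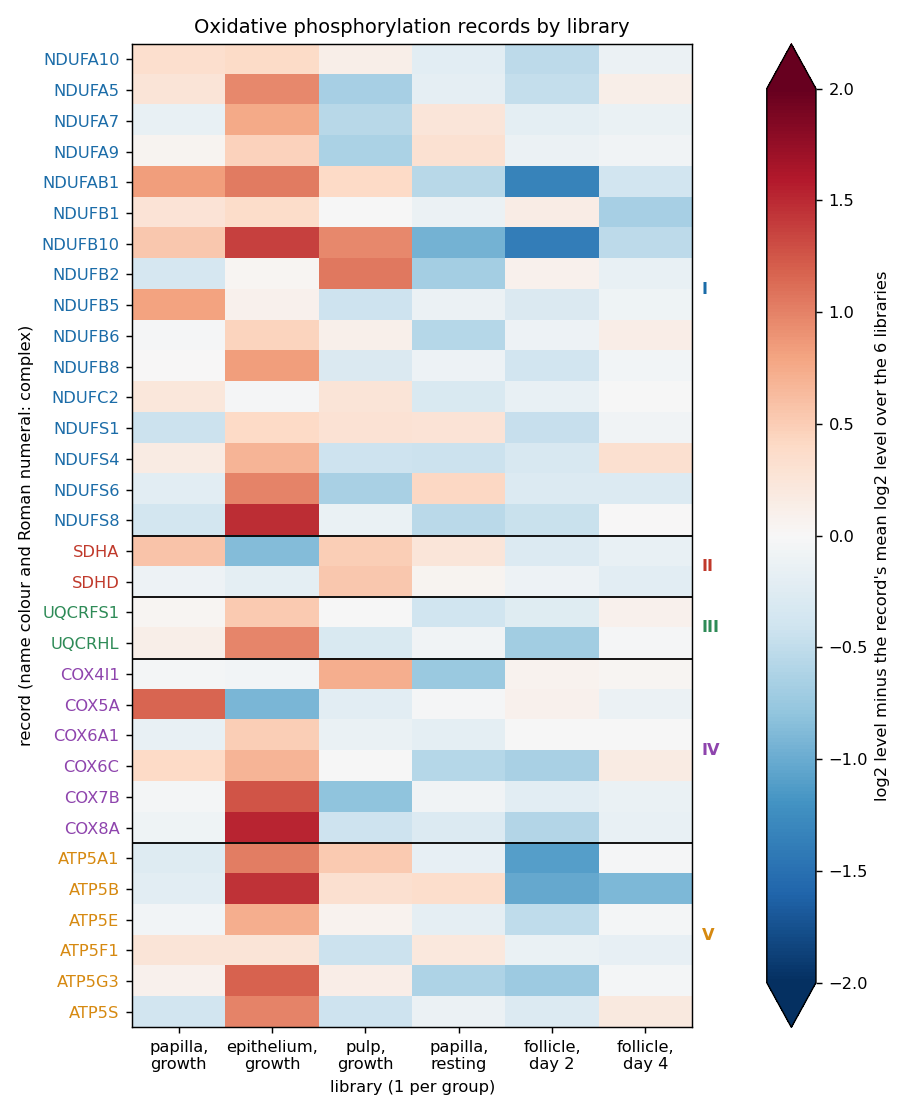
Level of each of the 32 members with at least 20 reads in 1 library or more (rows, grouped by complex) in each library (columns, 1 library per group), as the log2 of the TMM-scaled level plus 1 minus the member's mean over the 6 libraries. The epithelium column is red in most rows of complexes I, III, IV and V, blue for SDHA and COX5A, and the day 2 column is blue in most rows.

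Complex I was described by 17 records, of which 16 reached 20 reads. Its summed level was 1456 in the growth papilla, 2099 in the growth epithelium, 1768 in the pulp, 1246 in the papilla at rest, 1247 at day 2 and 1367 at day 4. The sum in the pulp leaned on a single accessory subunit of the membrane arm, NDUFB2, which supplied 44.3% of the complex I reads there and 18.4 to 32.2% elsewhere. Without NDUFB2 the sums were 1158 in the growth papilla, 1713 in the growth epithelium, 985 in the pulp, 1010 in the papilla at rest, 846 at day 2 and 1028 at day 4. The pulp then lay below the growth papilla and the epithelium and above day 2. Its interval (959 to 1010) overlapped those of the papilla at rest (978 to 1044) and day 4 (997 to 1060).

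The level of NDUFB2 itself was 297 in the growth papilla, 386 in the growth epithelium, 783 in the pulp, 235 in the papilla at rest, 401 at day 2 and 339 at day 4. With scaling the pulp was high and the resting papilla low, with no overlap of counting intervals between either of them and any other library. Without scaling the pulp stayed highest, at 801, but the resting papilla, at 255, lay close to the epithelium, at 265. NDUFS1, the largest iron-sulfur subunit and part of the catalytic core, had levels of 92.4, 165, 152, 150.3, 90.6 and 119 in the same order of libraries. The growth papilla and the day 2 follicle were low for it and the other 4 libraries higher. Without scaling its level in the epithelium was 113, between 102 at day 2 and 139 at day 4. NDUFS8, a core iron-sulfur subunit close to the ubiquinone site, had levels of 46.2, 169, 54.4, 40.9, 43.8 and 60.4, so that the epithelium stood well above the other 5 libraries. Among those the counting intervals of the resting papilla (34.6 to 48.1) and day 2 (37.3 to 51.1) lay below that of day 4 (53.0 to 68.6). The interval of the resting papilla also lay just below that of the pulp (48.5 to 60.7).

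NDUFAB1, the mitochondrial acyl carrier protein, which also serves fatty acid and iron-sulfur cluster synthesis, had a wider range. Its level was 42.7 in the growth papilla, 49.1 in the growth epithelium, 31.3 in the pulp, 15.7 in the papilla at rest, 8.71 at day 2 and 17.8 at day 4. The 3 growth-phase libraries were all above the resting papilla and the 2 regenerating follicles. NDUFB10, an accessory subunit of the membrane arm, was split the same way on few reads, with 27, 62 and 64 reads in the growth-phase libraries and 8, 5 and 13 in the others.

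Complex II was lowest in the epithelium with and without scaling. Its 2 listed subunits, SDHA, the flavoprotein that oxidises succinate, and SDHD, a membrane anchor, summed to 278 in the growth papilla (261 to 297), 164 in the growth epithelium (152 to 177), 330.07 in the pulp (315 to 345), 257 in the papilla at rest (240.4 to 274), and 203 at both day 2 (189 to 218) and day 4 (189 to 218). The pulp was the highest library. Without scaling the epithelium's sum was 113, and those of the other libraries lay between 228 and 338. Complex II supplied 2.23% of all member reads in the epithelium (exact binomial interval 2.06 to 2.40%) and 4.38 to 6.22% in the other libraries, a share that does not depend on the scaling.

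SDHA accounted for most of that range. Its level was 170.1 in the growth papilla, 62.3 in the growth epithelium, 162 in the pulp, 136 in the papilla at rest, 94.99 at day 2 and 103 at day 4. The growth papilla and pulp were high with overlapping intervals, the epithelium was low, and both regenerating follicles lay between it and the resting papilla. SDHD varied less, with 108 in the growth papilla, 102 in the growth epithelium, 169 in the pulp, 121 in the papilla at rest, 108 at day 2 and 100.03 at day 4. It stood out in the pulp, and with scaling the intervals of the growth papilla, the epithelium and both follicles overlapped. Without scaling SDHD was lowest in the epithelium, at 69.9, against 108 in the growth papilla, 122 at day 2 and 117 at day 4.

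Complex III summed to 349 in the growth papilla, 563 in the growth epithelium, 297 in the pulp, 282 in the papilla at rest, 242 at day 2 and 338 at day 4. UQCRFS1, the Rieske iron-sulfur protein that takes electrons from ubiquinol, had levels of 169, 238, 164, 126, 139.9 and 176 in that order. UQCRHL, the record for the hinge protein beside cytochrome c1, had levels of 179, 325, 132, 156, 101 and 162. Both were highest in the epithelium, UQCRFS1 only with scaling, while UQCRFS1 was lowest in the resting papilla and UQCRHL at day 2.

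**Figure D2:**
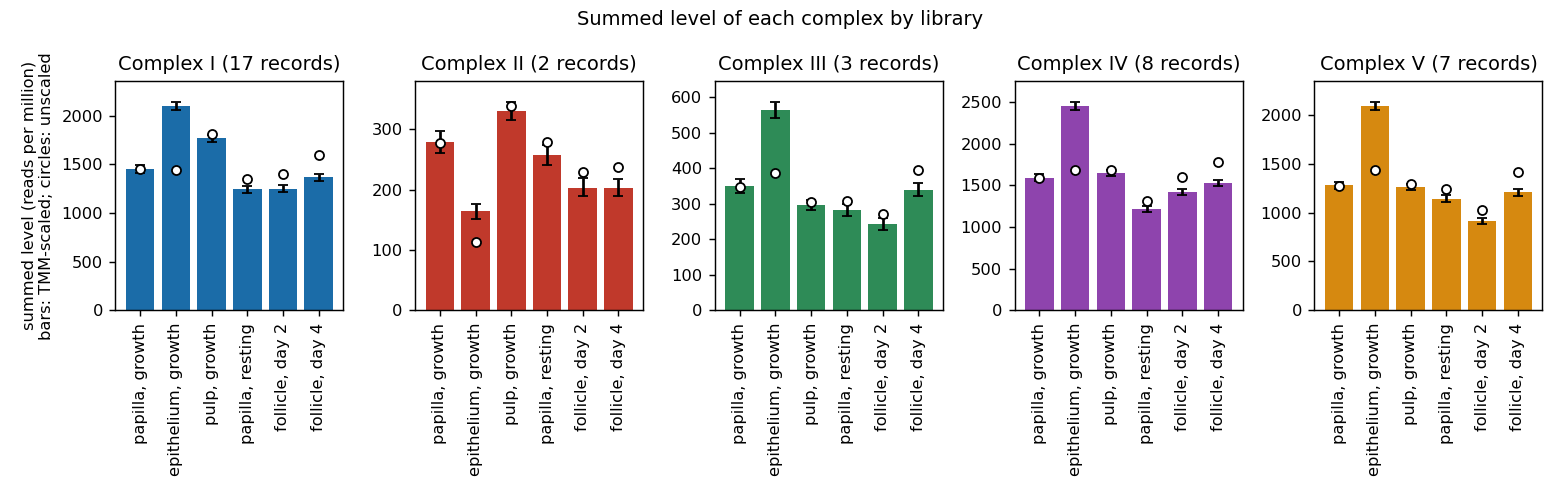
Summed level of the members of each complex (vertical axis, TMM-scaled RPM; the axis differs between panels) in each of the 6 libraries, with exact Poisson 95% intervals; open circles give the same sums without scaling. Bars of complexes I, III, IV and V are tallest for the epithelium, while the complex II bar of the epithelium, at 164, is the shortest of its panel with and without scaling. The open circles place the epithelium first for complex V alone.

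Complex IV summed to 1587 in the growth papilla, 2453 in the growth epithelium, 1647 in the pulp, 1211 in the papilla at rest, 1421 at day 2 and 1525 at day 4. The first place of the epithelium in complexes I, III and IV rested on the scaling: without it the complex I sum was 1443 in the epithelium and 1809 in the pulp, the complex III sum 387 in the epithelium and 395 at day 4, and the complex IV sum 1687 in the epithelium and 1781 at day 4. COX4I1, the widely expressed form of the regulatory subunit IV, supplied 48.5% of the complex IV reads in the pulp (47.5 to 49.5%), 18.8% in the epithelium and 23.8 to 35.6% elsewhere. Without it the complex IV sum was 848 in the pulp, 1991 in the epithelium, and between 915 and 1121 elsewhere.

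COX4I1 had levels of 466 in the growth papilla, 461 in the growth epithelium, 799 in the pulp, 289 in the papilla at rest, 506 at day 2 and 493 at day 4. As for NDUFB2, the pulp was the highest library and the resting papilla the lowest, and for COX4I1 the 4 others lay close together with scaling. Without scaling COX4I1 stood at 317 in the epithelium, near the resting papilla at 313. The growth papilla, at 465, and the follicles, at 569 and 576, then lay above both. COX5A, a matrix-side subunit of the same complex, had levels of 114, 26.1, 43.0, 49.5, 53.3 and 46.2 in the same order. The growth papilla was high, the epithelium low, and the intervals of the other 4 libraries overlapped.

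COX7B, a small membrane subunit of complex IV, had levels of 312 in the growth papilla, 762 in the growth epithelium, 182 in the pulp, 306 in the papilla at rest, 275 at day 2 and 292 at day 4. It was high in the epithelium and low in the pulp, also without scaling. COX8A, the widely expressed form of the smallest subunit and the only isoform of it among the members, had levels of 129, 395, 103, 114, 91.2 and 124, and the epithelium was again highest under either scaling. COX6A1, the widely expressed form of subunit VIa, varied least within the complex, from 346 in the resting papilla to 556 in the epithelium, and COX6C ranged from 98.8 at day 2 to 248 in the epithelium. Without scaling COX6A1 was highest at day 4 and COX6C in the growth papilla. The muscle forms COX6A2, COX7A1 and COX8B and the hypoxia-linked forms COX4I2 and NDUFA4L2 were not among the members.

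**Figure D3:**
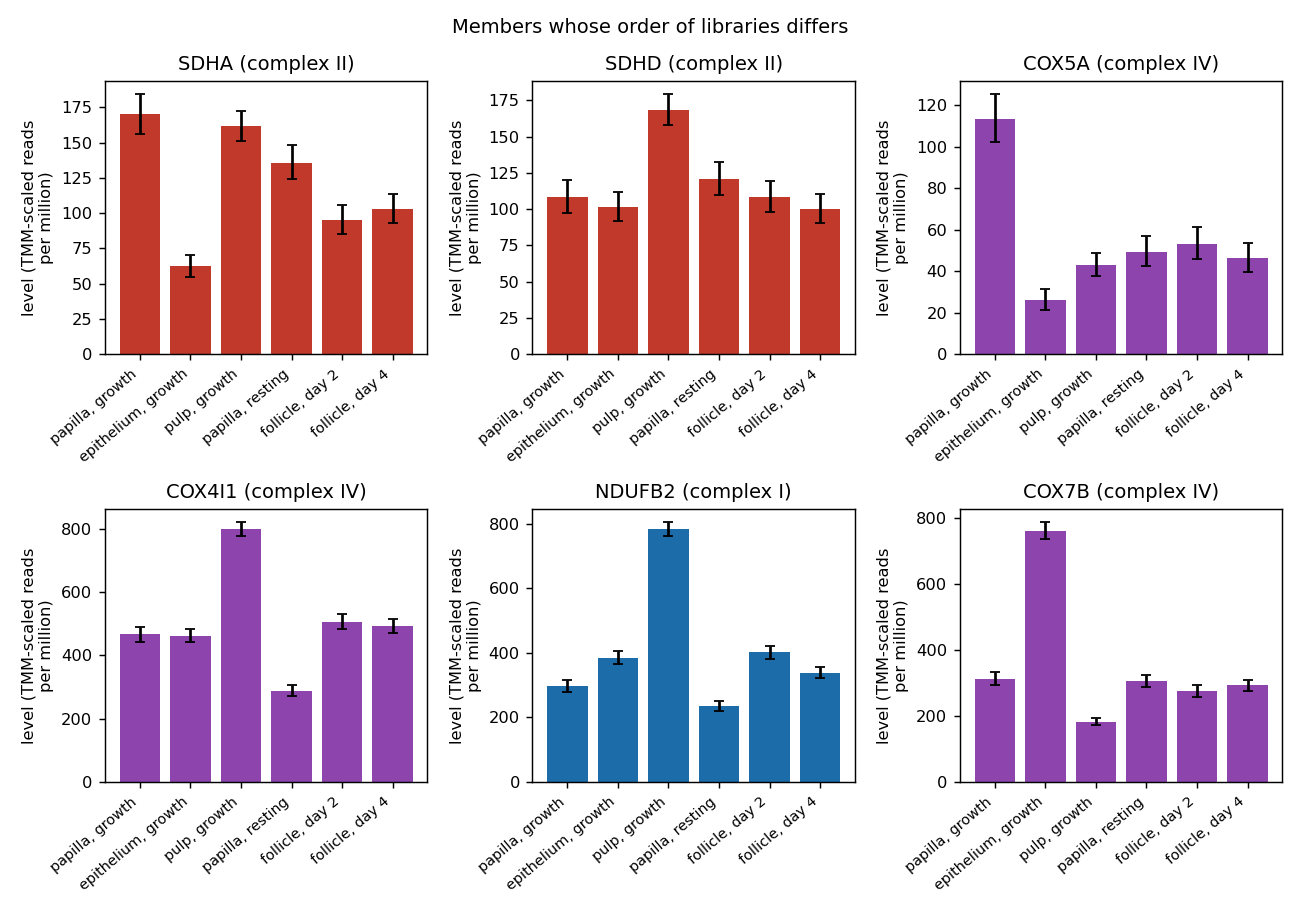
Level (vertical axis, TMM-scaled RPM, starting at 0) of 6 members in the 6 libraries, with exact Poisson 95% intervals as error bars. SDHA and COX5A are lowest in the epithelium, SDHD, COX4I1 and NDUFB2 are highest in the pulp, and COX7B is highest in the epithelium at 762 and lowest in the pulp at 182.

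Complex V summed to 1279 in the growth papilla, 2090.3 in the growth epithelium, 1261 in the pulp, 1143 in the papilla at rest, 916 at day 2 and 1208 at day 4, so the epithelium was high and day 2 low. Without scaling the epithelium, at 1438, was close to day 4, at 1411. ATP5E, the epsilon subunit of the central stalk, had levels of 794, 1364, 869.5, 729, 580.3 and 805 and supplied most of these reads. ATP5G3, one of several genes for the proton-carrying c ring, had levels of 177, 379.5, 183, 108, 100.2 and 163. It was high in the epithelium and low in the resting papilla and at day 2. With scaling ATP5F1, the b subunit of the peripheral stalk, was lower in the pulp (183), at day 2 (223) and at day 4 (219) than in the other 3 libraries (284 to 295). Without scaling the pulp stayed lowest, at 187, and the epithelium, at 203, lay below day 2 (251) and day 4 (255).

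The catalytic head of the ATP synthase rested on few reads. ATP5A1, the alpha subunit, had 26 reads in the growth papilla, 83 in the growth epithelium, 80 in the pulp, 30 in the papilla at rest, 14 at day 2 and 36 at day 4. Its record matches the Z-linked copy of a gene with a W-linked counterpart, and how reads shared by the pair were counted is not given in the sources used here. ATP5B, the beta subunit, had 9, 44, 25, 16, 4 and 5 reads, and the second beta record, LOC769346, has a near-identical description. Values of these 3 records are therefore uncertain. ATP5S, known as factor B, had 22 to 77 reads per library and was highest in the epithelium.

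The growth papilla was compared with the growth epithelium, its inductive partner. Of 32 members tested (at least 20 reads in 1 of the 2 libraries), 2 had a level in the papilla at least 2-fold above that in the epithelium, against 25% of all 6362 tested records, and 8 were at least 2-fold lower, against 22.7%. Without scaling the split was 3 higher and 3 lower, with 35.1% and 13.5% of all records. The median log2 ratio of the members was -0.57 against -0.05 for all records, and -0.04 against 0.45 without scaling. The members thus lay below the general run of records under either scaling, although 10 of the 32 changed the sign of their own ratio.

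COX5A was 4.35-fold higher in the papilla than in the epithelium (3.51 to 5.43) and SDHA 2.73-fold higher (2.35 to 3.17). The 6 members with the largest ratios in the other direction were NDUFS8, 3.65-fold lower in the papilla (3.07 to 4.37), COX8A, 3.07-fold lower (2.76 to 3.41), ATP5S, 2.85-fold lower (1.76 to 4.81), COX7B, 2.44-fold lower (2.27 to 2.62), and the uncertain records ATP5B (9 and 44 reads) and ATP5A1 (26 and 83 reads). ATP5G3 and NDUFS6, an accessory subunit of the peripheral arm, were 2.15-fold (1.96 to 2.37) and 2.33-fold (1.99 to 2.73) lower. Without scaling NDUFS8, COX8A and ATP5B remained 2-fold lower, and NDUFB5 joined SDHA and COX5A on the higher side. Complex V had the lowest median of the 5 complexes, -1.19, and complex II the highest, 0.76. The complex V median took in ATP5A1, ATP5B and ATP5S, which had few reads. The log2 ratios of ATP5E, ATP5G3 and ATP5F1 were -0.78, -1.10 and -0.02. By summed level with scaling the papilla was 0.61-fold the epithelium for complex V (0.59 to 0.63) and 0.62-fold for complex III (0.58 to 0.66). Without scaling the sums in papilla and epithelium were closer, at 1275 and 1438 for complex V and 348 and 387 for complex III.

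The pulp differed from the epithelium in the same direction over more members. Here 2 of 32 members were at least 2-fold higher in the pulp, against 26.7% of 6851 records, and 13 were at least 2-fold lower, against 20.4%. Without scaling the split was 5 and 5, with 38.3% and 11.1% of all records. The member median was -0.64 against 0.08 for all records, and -0.08 against 0.61 without scaling, and 8 members changed sign. This comparison shares the epithelium library with the one before, so they are not independent.

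SDHA was 2.59-fold higher in the pulp than in the epithelium (2.26 to 2.98) and NDUFB2 2.03-fold higher (1.92 to 2.15). The largest ratios in the other direction were those of COX7B, 4.19-fold lower in the pulp (3.90 to 4.49), COX8A, 3.84-fold lower (3.50 to 4.23), and 4 complex I or V members. Of these NDUFS6 was 3.16-fold lower (2.73 to 3.65), NDUFA5, an accessory subunit of the peripheral arm, 3.12-fold lower (2.72 to 3.60), NDUFS8 3.11-fold lower (2.72 to 3.56) and ATP5S 2.90-fold lower (1.94 to 4.42). NDUFA7, NDUFA9, NDUFB8, NDUFS4, UQCRHL, ATP5B and ATP5G3 completed the 13. COX7B, COX8A, NDUFS6, NDUFS8 and NDUFA5 remained 2-fold lower without scaling, and SDHD, COX4I1 and COX5A then joined the higher side.

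Within the mesenchyme the growth papilla and pulp were closer for these genes. Of 32 members 2 had a level in the papilla at least 2-fold above that in the pulp, against 14.7% of 6667 records, and 1 was at least 2-fold lower, against 19.1%. The member median was 0.15 against -0.09 for all records, and 22 of the 32 lay above the latter. COX5A was 2.64-fold higher in the papilla (2.25 to 3.11) and NDUFB5, an accessory subunit of the membrane arm, 2.34-fold higher (2.02 to 2.72). NDUFB2 was 2.64-fold lower (2.46 to 2.83), and the next in that direction were COX4I1, 1.71-fold lower (1.62 to 1.82), and ATP5A1, 1.80-fold lower on 26 and 80 reads (1.14 to 2.92). The summed level of all members differed 1.07-fold in favour of the pulp (1.05 to 1.09), and without COX4I1 and NDUFB2 it differed 1.13-fold in favour of the papilla (1.10 to 1.15).

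Other cell content moved with these tissue comparisons. Summed leukocyte markers (14 genes found of 18 listed) were 2283 in the pulp, 410.2 in the growth papilla and 34.5 in the epithelium, where PTPRC, CD4, C1QA and CYBB were unlisted. Summed smooth muscle markers (12 found of 15) were 50103 in the growth papilla, 1513 in the pulp and 372 in the epithelium. Melanocyte markers (8 found of 11) summed to 807 in the epithelium and to 9.12 to 37.3 elsewhere, and erythroid markers (7 found of 15) to 1847 in the pulp and 61.8 to 507 elsewhere. The erythroid markers did not all move together. Of 6 tested, 3 were 2-fold higher and 2 lower in pulp against epithelium, and 1 higher and 2 lower in growth papilla against epithelium. Summed proliferation genes (22 found of 31) were 662 in the growth epithelium, 658 in the pulp and 362 in the growth papilla. The part of all these gene lists in the values of the members was not tested.

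**Figure D4:**
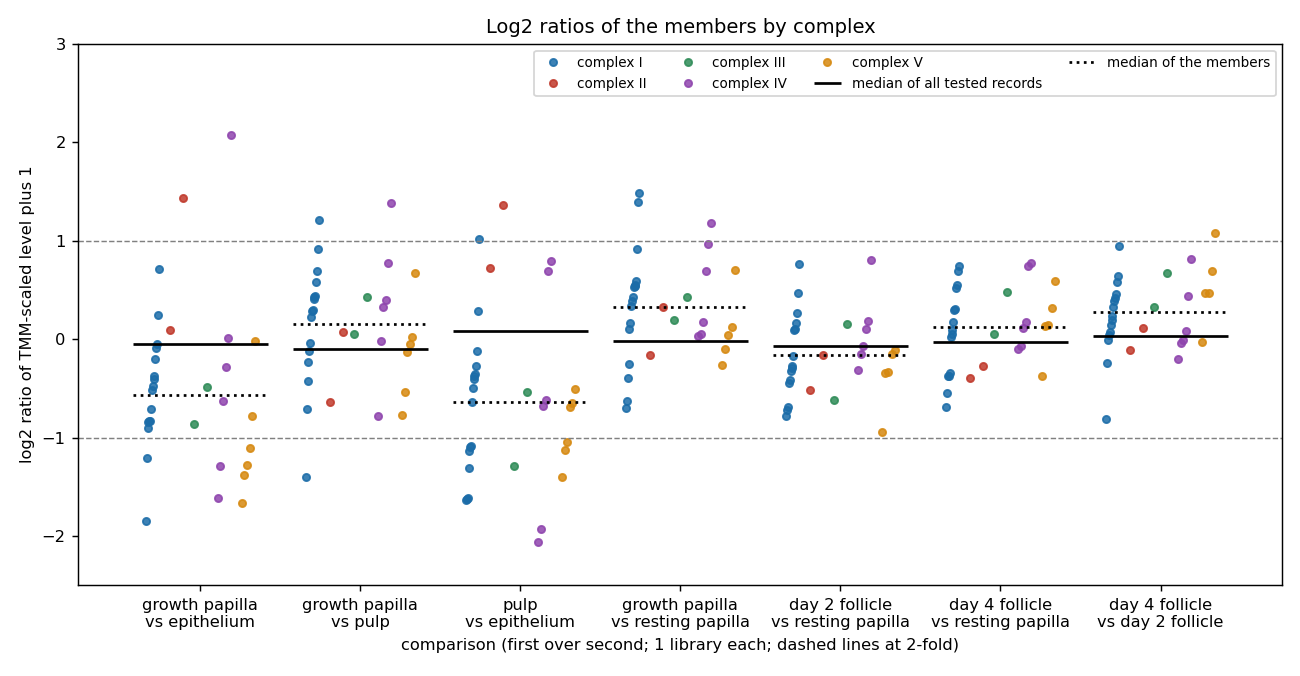
Log2 ratios (vertical axis, of TMM-scaled level plus 1) of the tested members in the 7 comparisons (horizontal axis, 1 library against 1 library), coloured by complex. Solid bars mark the median of all tested records and dotted bars the median of the members, which lies lowest for the pulp against the epithelium, at -0.64; dashed lines mark 2-fold.

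The growth papilla was compared with the resting papilla, the same structure in the other phase of the feather cycle. Of 31 members tested, 3 were at least 2-fold higher in growth, against 9.35% of 5957 records, and 0 were at least 2-fold lower, against 7.97%. The member median was 0.32 against -0.02 for all records (0.20 against -0.13 without scaling), and 24 of the 31 lay above the latter. A further 12 subunits worded otherwise, described below, had a median of -0.14, and 7 of them lay below that of all records. NDUFAB1 was 2.72-fold higher in growth (1.99 to 3.77), COX5A 2.30-fold higher (1.92 to 2.76), and NDUFB10 3.61-fold higher on 27 and 8 reads (1.60 to 9.20). With a minimum of 200 reads COX5A was the only one of them tested and called.

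On the lower side NDUFS1 was 1.63-fold lower in growth (1.41 to 1.88) and NDUFS6 1.55-fold lower (1.31 to 1.85). By complex, the summed level in growth was 1.31-fold that at rest for complex IV (1.26 to 1.36), 1.24-fold for complex III (1.14 to 1.34), 1.17-fold for complex I (1.12 to 1.22), 1.12-fold for complex V (1.07 to 1.17) and 1.08-fold for complex II (0.990 to 1.19). With scaling the complex II interval alone included 1. Without scaling the sums in growth and at rest were 1582 and 1315 for complex IV and 348 and 307 for complex III. They were 1451 and 1353 for complex I, 1275 and 1241 for complex V, and 277 and 279 for complex II. Smooth muscle markers summed to 50103 in growth and 12292 at rest and epithelial markers to 793 and 1651, and their part in these ratios was not tested.

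Regeneration was followed against the resting papilla. At day 2 none of the 30 members tested was 2-fold higher, against 7.03% of 6013 records, and none was 2-fold lower, against 6%. The member median was -0.16 against -0.06 for all records. COX4I1 was 1.75-fold higher at day 2 (1.63 to 1.89) and NDUFB2 1.71-fold higher (1.57 to 1.86), while NDUFAB1 was 1.80-fold lower (1.15 to 2.87) and ATP5A1 2.16-fold lower on 14 and 30 reads (1.11 to 4.42), which fell short of 2-fold once 1 was added to each level.

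By complex, day 2 was 1.25-fold below the resting papilla for complex V (1.19 to 1.31) and 1.26-fold below it for complex II (1.15 to 1.39). Complex III was 1.17-fold below it (1.07 to 1.28). Complex IV was 1.17-fold above it (1.13 to 1.22), but without COX4I1 its sums were 915 at day 2 and 923 at rest. For complex I the ratio was 1.001 (0.961 to 1.04), which combined a higher NDUFB2 with a lower sum of the remaining 16 records (846 against 1010).

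At day 4 none of the 30 members was 2-fold higher than in the resting papilla, against 8.23% of 6090 records, and none was 2-fold lower, against 6.9%. The member median was 0.13 against -0.03 for all records. COX4I1 was 1.71-fold higher (1.58 to 1.84) and COX6C, a small membrane subunit of complex IV, 1.68-fold higher (1.48 to 1.91). NDUFS6 was 1.63-fold lower (1.38 to 1.92) and NDUFB1, an accessory subunit of the membrane arm, 1.48-fold lower (1.14 to 1.93), and SDHA was 1.32-fold lower (1.15 to 1.51). Both regeneration libraries are labelled as follicle and the resting library as papilla, so time and tissue cannot be told apart here. Smooth muscle markers summed to 12292 at rest, 4906 at day 2 and 4740 at day 4, and 7 of 11 were at least 2-fold lower at each day. Leukocyte markers summed to 345 at rest, 723 at day 2 and 701 at day 4, with 7 of 9 and 8 of 10 at least 2-fold higher. Erythroid markers summed to 61.8, 465 and 507 and epithelial markers to 1651, 2144 and 2802 in that order. The epithelial list did not move as a block: 3 of 15 were 2-fold higher and 1 lower at day 2, and 3 of 14 and 1 at day 4. Its median log2 ratio at day 2 was -0.15 against -0.06 for all records, and at day 4 0.20 against -0.03. The part of these marker lists in the ratios of the members to the resting papilla was not tested.

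Between the 2 follicle libraries, 1 of 30 members was at least 2-fold higher at day 4 than at day 2, against 3.77% of 6048 records, and 0 were at least 2-fold lower, against 3.84%. The member was ATP5A1 (36 and 14 reads, 2.40-fold, 1.26 to 4.81), which did not pass with a pseudocount of 5 or a minimum of 200 reads. The member median was 0.28 against 0.03 for all records, and 22 of the 30 lay above the latter. NDUFAB1 was 2.04-fold higher at day 4 on 70 and 32 reads (1.32 to 3.20). It fell short of 2-fold once 1 was added to each level, with a log2 ratio of 0.951, and passed without scaling, at 1.013. COX6C was 1.76-fold higher (1.55 to 2.01), whereas NDUFB1 was 1.78-fold lower (1.39 to 2.31), NDUFB2 1.18-fold lower (1.10 to 1.28) and COX5A 1.15-fold lower (0.939 to 1.42).

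The summed level at day 4 was 1.40-fold that at day 2 for complex III (1.28 to 1.52) and 1.32-fold for complex V (1.26 to 1.38), against 1.10-fold for complex I (1.05 to 1.14), 1.07-fold for complex IV (1.03 to 1.11) and 0.999-fold for complex II (0.903 to 1.11). The proliferation genes were higher at day 4 as well, with 7 of 18 at least 2-fold higher, a median log2 ratio of 0.88 and summed levels of 251 at day 2 and 529 at day 4. Leukocyte markers summed to 723 and 701. The part of either in the complex III and V values was not tested. The resting papilla serves 3 of the 7 comparisons and each follicle 2 of them, so their ratios are not independent of each other.

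A further 15 records name subunits of these complexes in other words and were not chosen by the rule. Of these 12 had at least 20 reads in the comparisons made. UQCRC1, core protein 1 of complex III, had levels of 42.7 in the growth papilla, 186 in the growth epithelium, 45.8 in the pulp, 59.4 in the papilla at rest, 31.0 at day 2 and 35.3 at day 4. COX7A2, the widely expressed form of subunit VIIa of complex IV, had 431, 1386, 372, 510.3, 357 and 514 in that order. Both were high in the epithelium alone. NDUFA4, an accessory subunit once placed in complex I and later in complex IV, had 535, 706, 214, 447, 359.8 and 306, with the pulp lowest. NDUFV1, SDHB, ATP5G1 and ATP5G2 were not found among either set.

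Of these 12, none was 2-fold higher and 3 were 2-fold lower in the growth papilla than in the epithelium (UQCRC1, COX7A2 and LOC770052, a subunit g record), against 25% and 22.7% of all records, and 5 were 2-fold lower in the pulp than in the epithelium (UQCRC1, COX7A2, NDUFA4, NDUFA8 and NDUFA11), against 20.4%. UQCRC1 was 4.36-fold lower in the growth papilla than in the epithelium (3.65 to 5.24) and COX7A2 3.22-fold lower (3.04 to 3.41). NDUFA4 was 2.50-fold higher in the growth papilla than in the pulp (2.33 to 2.69). None was 2-fold apart in the other 4 comparisons. Ratios of these 12 were taken with scaling only, so those to the epithelium near 2-fold depend on it. Their median log2 ratio lay on the same side of all records as that of the members except in growth against resting papilla, where it was -0.14, and in day 4 against resting papilla, where it was -0.06.

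Genes next to the complexes in energy metabolism were read from lists of their own, each against all tested records. Of all records 25% were 2-fold higher and 22.7% lower in growth papilla against epithelium, 26.7% and 20.4% in pulp against epithelium, and 14.7% and 19.1% in growth papilla against pulp. Without scaling these shares were 35.1% and 13.5% in growth papilla against epithelium, and 38.3% and 11.1% in pulp against epithelium. Ratios of the listed genes were taken with scaling only, so folds to the epithelium near 2 depend on it. The median of the assembly factors lay between -0.26 and 0.10 from that of all records on the log2 scale in the 7 comparisons. In growth papilla against epithelium 3 of 26 were 2-fold higher and 3 lower, both below the shares of all records. SDHAF2, which attaches the flavin to SDHA, was 3.72-fold lower in the papilla (2.96 to 4.73) and the complex I factor NDUFAF1 3.38-fold lower (2.61 to 4.42). In pulp against epithelium 4 of 27 were higher and 3 lower, and NUBPL, an iron-sulfur factor of complex I, was 9.81-fold higher in the pulp (6.54 to 15.4). SDHAF2 was also 2.58-fold lower in the pulp than in the epithelium (2.19 to 3.04), the library in which SDHA was lowest.

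Among genes of cytochrome c, ubiquinone synthesis and energy exchange, SLC25A3, the mitochondrial phosphate carrier that supplies the ATP synthase, was 4.44-fold lower in the growth papilla (3.92 to 5.04) and 4.17-fold lower in the pulp (3.78 to 4.60) than in the epithelium. SLC25A5, an ADP/ATP carrier, was 2.42-fold lower in the growth papilla than in the epithelium (2.07 to 2.82) and 2.10-fold higher than in the resting papilla (1.67 to 2.66). For the whole list 2 of 20 were 2-fold higher and 4 lower in growth papilla against epithelium, and 2 of 18 higher and 4 lower in pulp against epithelium, the lower counts being close to the shares of all records (22.7% and 20.4%). In growth against resting papilla 1 of 20 was higher and 2 lower, against 9.35% and 7.97% of all records. The list median there was -0.08 against -0.02 for all records.

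The tricarboxylic acid cycle and pyruvate dehydrogenase list did not move as a block. In growth papilla against epithelium 6 of 19 were 2-fold higher and 1 lower, against 25% and 22.7% of all records, although its median, -0.23, lay below theirs. IDH3A, the catalytic subunit of NAD-dependent isocitrate dehydrogenase, was 10.4-fold higher in the papilla (6.78 to 16.6) and MDH1, the cytosolic malate dehydrogenase, 4.44-fold higher (3.84 to 5.14). In growth papilla against pulp 6 of 19 were higher and 0 lower, against 14.7% and 19.1% of all records. IDH3A was 5.51-fold (4.14 to 7.43) and fumarase, FH, 3.25-fold (2.72 to 3.90) higher in the papilla. In pulp against epithelium 1 of 19 was higher and 5 lower, against 26.7% and 20.4%, the lower count being near its share. The lower ones were led by the mitochondrial malate dehydrogenase MDH2, 5.56-fold lower (4.82 to 6.43), and the pyruvate dehydrogenase subunit PDHA1, 4.74-fold lower (4.06 to 5.55).

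In growth against resting papilla 3 of 20 were higher and 1 lower, against 9.35% and 7.97% of all records. PDK4, the kinase that turns off pyruvate dehydrogenase, had 2 reads in growth and 52 at rest, 24.3-fold lower (6.39 to 206), while OGDH, of the oxoglutarate dehydrogenase complex, was 3.10-fold higher in growth (2.21 to 4.41) and FH 2.46-fold higher (2.04 to 2.99). Against the resting papilla 3 of 20 were lower and 0 higher at day 2, against 6% and 7.03% of all records. At day 4, 3 of 20 were lower and 1 higher, against 6.9% and 8.23%. PDK4 was lower at both days, 4.04-fold (2.17 to 8.08) and 5.12-fold (2.64 to 10.9), and PDHA1 was 2.10-fold (1.78 to 2.49) and 2.11-fold (1.79 to 2.48) lower. IDH3A was 3.32-fold lower at day 4 than at day 2 (2.32 to 4.85).

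Glycolytic genes, like all tested records, were 2-fold apart mostly in the comparisons of growth-phase tissues. In growth papilla against epithelium 3 of 15 were 2-fold higher and 4 lower, against 25% and 22.7% of all records. The median was 0.05 against -0.05 for all records. In pulp against epithelium 9 of 15 were 2-fold lower and 2 higher, against 20.4% and 26.7%. The median was -1.22 against 0.08 for all records, and the glucose phosphate isomerase gene GPI was 6.58-fold lower in the pulp (5.58 to 7.80). In growth papilla against pulp 8 of 15 were higher and 1 lower, against 14.7% and 19.1%. The largest ratios were those of TPI1, 5.04-fold higher (4.15 to 6.14), and LDHA, 4.32-fold higher (3.49 to 5.38). In growth against resting papilla 4 of 15 were higher and 0 lower, against 9.35% and 7.97%. TPI1 was 3.22-fold higher in growth (2.65 to 3.93). At day 2 LDHA was 2.95-fold above the resting papilla (2.54 to 3.44), with 2 of 15 higher and 1 lower, against 7.03% and 6%. At day 4 none was 2-fold apart from the resting papilla, against 8.23% of all records higher and 6.9% lower. Compared with day 2, 1 was higher and 1 lower at day 4, against 3.77% and 3.84%. No test of the difference between the lists was made.

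**Figure D5:**
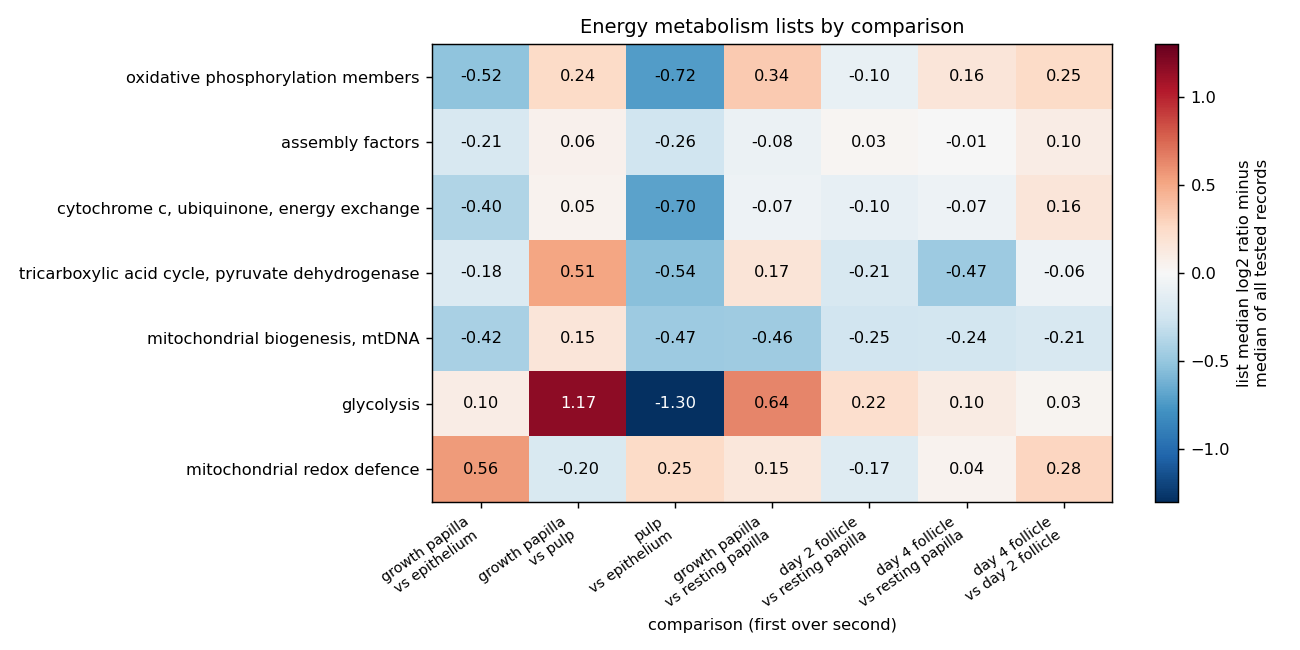
Median log2 ratio of each energy metabolism list minus the median of all tested records (colour and printed value) in the 7 comparisons (columns, first library over second). For the pulp against the epithelium the oxidative phosphorylation members stand at -0.72 and glycolysis at -1.30; for the growth papilla against the epithelium they stand at -0.52 and 0.10, and for the growth against the resting papilla at 0.34 and 0.64.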

How the data were processed

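The authors deposited 1 table per library with whole-number read counts per transcript record (records with fewer than 2 reads are not listed) and a column headed TPM, per the file headers. That column is a deposited RPM value (reads relative to the library total): its ratio to the count was constant within a table, so it is not divided by length, and the library totals were recovered from it. Libraries followed a standard Illumina protocol from Trizol total RNA, per the labels' protocols. The genome build is given as mm10, a mouse build, per the submitters' processing notes, although the records are chicken. An aligner, a counter and a strand setting were not given in the sources used here.

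Members were found by the wording of their descriptions. Of the 37, 11 were named through the RefSeq gene table and 1 had no symbol there and keeps its locus name. Scaling factors were computed with edgeR 4.0.16 (TMM) in R 4.3.3, and the rest in Python 3.11.15. With 1 library per group no test was run: log2 ratios of level plus 1 were counted at 2-fold among records with at least 20 reads in 1 library of the pair. Folds are ratios of scaled counts with exact conditional binomial intervals, and sums carry exact Poisson intervals. The steps were tested on simulated data.

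Members named per comparison were up to 6 per direction with the largest ratios past 2-fold (or the 2 largest where fewer passed), a fixed set of catalytic and isoform genes, and every unlisted member; other lists gave up to 3 genes per comparison. Other subunits named were chosen after their values were seen. Members, lists and alternatives were chosen with earlier results of these data known. Alternatives covered 3 other scalings, 2 other count minimums, another pseudocount, summing records of 1 symbol and the wider member set, the last chosen after seeing the data.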

Additional observations from a re-analysis of the deposited data

How the results depend on the processing

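The member median relative to all tested records kept its sign under all 8 alternatives in each of the 7 comparisons (56 of 56), but its size moved by over 1.5 times in 9 of them. With a minimum of 200 reads it was -0.20 in place of -0.52 for growth papilla against epithelium and 0.52 in place of 0.25 for growth papilla against pulp. With no filter it was 0.12 for growth papilla against pulp, 0.17 for growth against resting papilla, -0.27 at day 2 and 0.089 at day 4 against resting papilla, and 0.15 for day 4 against day 2. With the wider member set it was 0.21 in place of 0.34 for growth against resting papilla and -0.21 in place of -0.10 for day 2 against resting papilla. Counts at 2-fold moved as follows. Without scaling, growth papilla against epithelium had 3 lower members, pulp against epithelium 5 higher and 5 lower, day 4 against day 2 had 2 higher, and 9 members were highest in the epithelium; the cause was not tested beyond the shift of the all-record median. With a minimum of 200 reads, which tests fewer records, growth papilla against epithelium had 5 lower members, growth against resting papilla 1 higher and day 4 against day 2 had 0 higher. A pseudocount of 5 also left 0 higher in the last. With no filter, which adds records of few reads, 2 members were lower in growth papilla against pulp and 2 in each comparison with the resting papilla. The summed level under median-of-ratios factors was 7489 in the epithelium, 5399 in the pulp and 4012 in the papilla at rest. Without scaling it was 5068 in the growth epithelium, 5425 in the pulp, 4495 in the papilla at rest, 4529 at day 2 and 5423 at day 4, which ends the first place of the epithelium. Under both of these scalings the resting papilla, 4139 with TMM scaling, lay below the day 2 follicle, whose sum under median-of-ratios factors was 4053. Of 189 values under the alternatives, 159 kept within 1.5 times the main count or median or, for a sum, within its counting interval.

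No paired analysis was possible because each group has 1 library, and leaving out a library gives no value. Depth limits the members under 20 reads and the catalytic head of the ATP synthase, where 4 to 83 reads per library give intervals wider than most ratios. Counting intervals do not cover differences between birds, dissections or library preparations.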

Other observations

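The mitochondrial biogenesis and redox defence lists were read in the same way. Of the biogenesis genes found (17 of 24), none was 2-fold higher in the growth papilla than in the resting papilla and 3 of 13 tested were lower, against 7.97% of all records: SIRT3, a mitochondrial deacetylase (4 and 21 reads, 4.90-fold, 1.65 to 19.6), POLG2, the accessory subunit of the mitochondrial DNA polymerase (8 and 30 reads, 3.50-fold, 1.57 to 8.84), and GABPB1, a subunit of a transcription factor that acts on respiratory genes in mammals (2.17-fold, 1.54 to 3.08). The list median was -0.48 against -0.02 for all records, while that of the oxidative phosphorylation members was 0.32 and that of the 12 further subunits -0.14. Relative to all records, the biogenesis median lay on the members' side in the comparisons of growth-phase tissues and in day 2 against resting papilla. It lay on the opposite side in growth against resting papilla, day 4 against resting papilla and day 4 against day 2. SSBP1, which coats single-stranded mitochondrial DNA, was 2.23-fold lower in the growth papilla (1.83 to 2.74) and 3.46-fold lower in the pulp (2.85 to 4.21) than in the epithelium. Both SSBP1 ratios were taken with scaling only, and their size depends on it.

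Of the redox defence genes (8 of 12 found), 3 of 6 tested were 2-fold higher in the growth papilla than in the epithelium and none lower, against 25% and 22.7% of all records (35.1% and 13.5% without scaling). SOD1, the cytosolic and intermembrane superoxide dismutase, was 3.83-fold higher (3.07 to 4.81), and the matrix enzyme SOD2 was 2.42-fold higher (2.06 to 2.84) and also 2.44-fold higher than in the resting papilla (2.06 to 2.89). SOD1 was 7.22-fold higher in the pulp than in the epithelium (5.92 to 8.89). In pulp against epithelium 2 of 7 redox genes were 2-fold higher and 0 lower, against 26.7% and 20.4% of all records. The higher count was near its share. The epithelium was lowest of the 3 growth-phase libraries for both superoxide dismutases, on 107 and 231 reads. Of all records with at least 20 reads, 32.2% were lowest in the epithelium among the 6 libraries.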
